A study of Caenorhabditis elegans with 10 samples.

Results

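The genes described here are *lys-1* to *lys-8*, 8 lysozyme genes of *Caenorhabditis elegans*. They are listed by their WormBase identifiers (WBGene00003090 to WBGene00003097, in that order), a rule that itself uses no measured value. The family and the tests were nevertheless chosen with earlier results of these data known, so the choice was not blind to the data. All 8 were among the 18451 rows of the deposited table, and the tests reported here used no filter. Most of them are regarded as genes of the gut, whereas the series was made to study 2 kinds of sensory neuron.

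Lysozymes cut the peptidoglycan of bacterial cell walls. *C. elegans* eats bacteria, and its lysozymes, made mainly in intestinal cells, are known both as digestive enzymes and as effectors of the defence against ingested pathogens. *lys-1* to *lys-8* belong to the family that resembles the lysozymes of protists, apart from the invertebrate-type *ilys* genes. Messages of *lys-1*, *lys-7* and *lys-8* are known to rise during infection with *Serratia marcescens*, and *lys-7* is a known target of the insulin pathway's transcription factor DAF-16. In the RefSeq annotation of assembly WBcel235, *lys-1*, *lys-2* and *lys-3* are consecutive protein-coding genes, and so are *lys-4*, *lys-5* and *lys-6*. *lys-7* lies between *srbc-30* and *srbc-33*, and *lys-8* also has no lysozyme gene beside it.

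RNA was measured on 10 Affymetrix tiling arrays, 1 per sample, from L2/L3 larvae that had been raised at 25 °C. There were 3 arrays of PVD/OLL neurons from wild type (N2), 3 of PVD/OLL neurons from *mec-3(e1338)* mutants, 2 of whole wild-type animals and 2 of whole *mec-3(e1338)* animals, and the titles call the samples biological replicates. PVD is a nociceptor with a branched dendrite, OLL a head sensory neuron, and *mec-3* a LIM homeodomain gene that gives touch neurons their identity and PVD its branches. PVD/OLL messages were recovered by immunoprecipitating the poly(A) binding protein PAB-1, which carried a 3X FLAG tag and was made under the ser-2prom3B promoter, so they are the messages that came down from a whole-animal lysate and not those of isolated cells. Whole-animal RNA was total RNA with no immunoprecipitation, and whether those animals carried the tagged protein is not given in the sources used here.

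Values are log2 RMA values, in which 1 unit is a 2-fold change, and they are not compared here between genes. Whether PVD/OLL and whole-animal arrays were normalized together was not given in the sources used here: pairs of arrays of 1 kind held 1 to 9 identical values, and pairs of different kinds held 0. A PVD/OLL minus whole-animal value, and any level or difference set across the 2 kinds, therefore carries any difference in processing between them. Array medians lay between 6.51 and 6.77, and 2 arrays of a group correlated at 0.952 to 0.984. No background level was used here, so a value in the lowest 25% of its array, whose upper bound lay between 4.56 and 5.44, is not known to be above background. The other identifiers could not be paired with gene names, so markers of PVD, OLL, gut, muscle or hypodermis, and *mec-3* itself, were not analysed here. The part of other tissues or of the genotype labels in any result below was therefore not tested. In RNA of many cells, fewer cells of a type and less RNA per cell cannot be told apart.

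**Figure D1:**
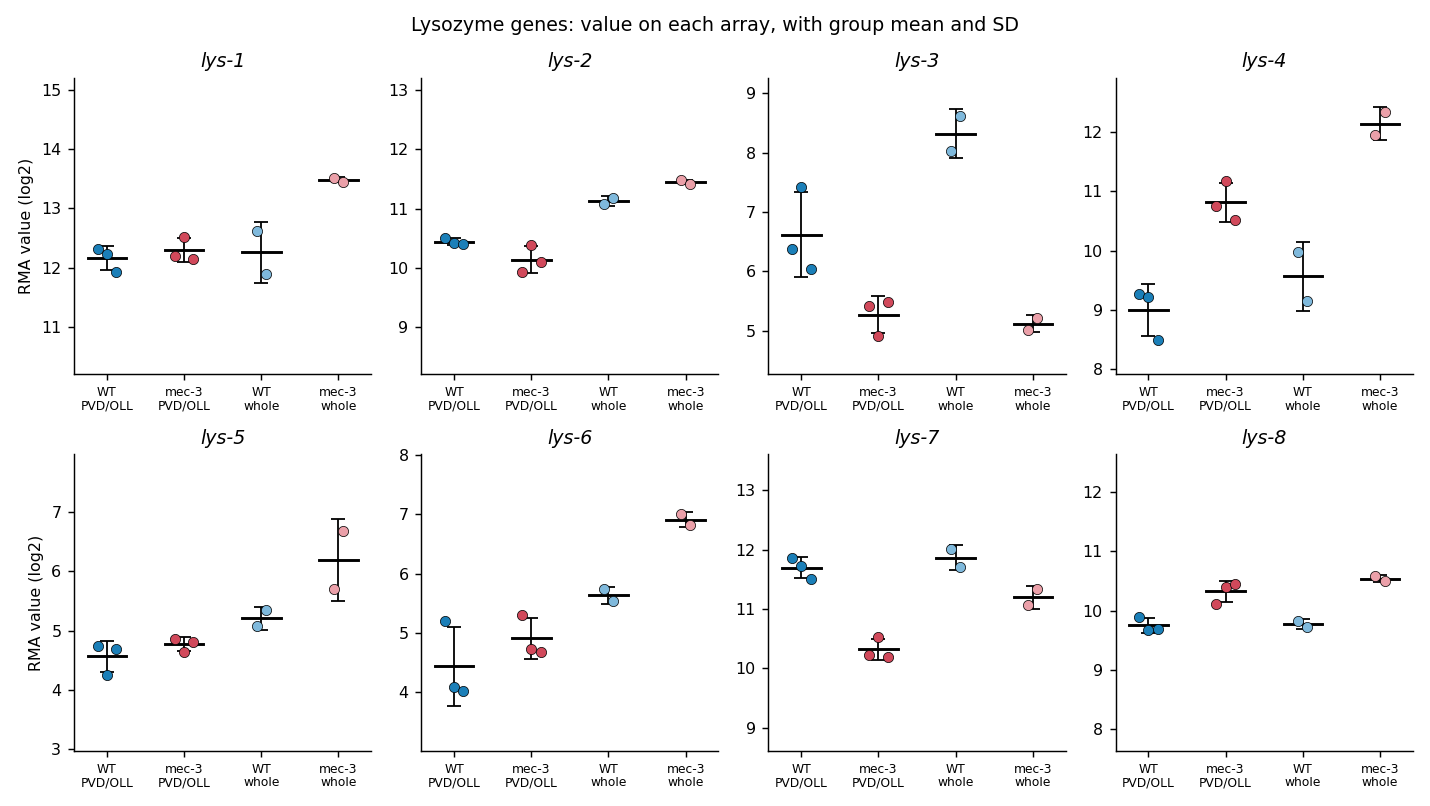
RMA value (log2, vertical axis, 5 units in every panel) of each lysozyme gene on each array, with points for arrays and black lines for the group mean ± SD (n = 3 for PVD/OLL, n = 2 for whole animals; WT is wild type). *lys-4* and *lys-8* were higher on every *mec-3* array than on every wild-type array. *lys-3* and *lys-7* were lower on every *mec-3* array than on every wild-type array, and *lys-8* spanned the narrowest range.

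The neighbours *lys-4*, *lys-5* and *lys-6* had their highest mean in *mec-3* whole animals and their lowest in wild-type PVD/OLL, as did *lys-1* and *lys-8*. The middle groups of *lys-5* and *lys-6* were in the reverse order to those of *lys-4*. The share of all rows with these highest and lowest groups was not computed. *lys-4* (WBGene00003093) measured 9.28, 9.23 and 8.50 on the wild-type PVD/OLL arrays and 10.75, 11.18 and 10.53 on the *mec-3* PVD/OLL arrays. In whole animals it measured 9.98 and 9.15 in wild type and 11.95 and 12.34 in *mec-3*. All 5 *mec-3* arrays thus lay above all 5 wild-type arrays, as they did for *lys-8* and for 4.96% of all rows. The order of the group means was *mec-3* whole animals, *mec-3* PVD/OLL, wild-type whole animals and wild-type PVD/OLL, and the last 2 overlapped, with means 0.57 apart against an SD of up to 0.59.

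*lys-5* (WBGene00003094) had low values on most arrays. It measured 4.75, 4.26 and 4.69 in wild-type and 4.87, 4.64 and 4.81 in *mec-3* PVD/OLL, ranges that overlapped, and 5.08 and 5.34 in wild-type whole animals. The *mec-3* whole-animal values, 5.71 and 6.69, were the highest of the 10 but also lay nearly 1 unit from each other. In the lowest 25% of their array were 2 of the 3 wild-type PVD/OLL values and both wild-type whole-animal values.

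*lys-6* (WBGene00003095) measured 5.21, 4.08 and 4.02 in wild-type PVD/OLL, where replicate 1 stood above the other two, and 5.31, 4.74 and 4.68 in *mec-3* PVD/OLL. In whole animals it measured 5.74 and 5.54 in wild type and 7.0 and 6.83 in *mec-3*. The 2 whole-animal groups were apart from each other and from PVD/OLL, and the 2 PVD/OLL groups overlapped. Replicates 2 and 3 of wild-type PVD/OLL were in the lowest 25% of their array.

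The other 3 neighbours, *lys-1*, *lys-2* and *lys-3*, did not all have the same highest group or the same lowest group. *lys-1* (WBGene00003090), one of the genes known to respond to infection, measured 12.32, 12.23 and 11.93 in wild-type and 12.21, 12.53 and 12.15 in *mec-3* PVD/OLL. In whole animals it measured 12.63 and 11.89 in wild type, a wide pair that spanned all the PVD/OLL values, and 13.52 and 13.45 in *mec-3*. The *mec-3* whole animals stood apart above the rest, and the other 3 groups overlapped.

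*lys-2* (WBGene00003091) measured 10.51, 10.43 and 10.41 in wild-type and 9.94, 10.39 and 10.10 in *mec-3* PVD/OLL. Its whole-animal values were 11.07 and 11.19 in wild type and 11.48 and 11.42 in *mec-3*. Neighbouring groups in the order *mec-3* whole animals, wild-type whole animals, wild-type PVD/OLL and *mec-3* PVD/OLL were all apart, the last 2 by 0.30 between means against an SD of up to 0.23.

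*lys-3* (WBGene00003092) had another order, with wild-type whole animals highest, at 8.03 and 8.62. It measured 6.39, 7.42 and 6.04 in wild-type PVD/OLL, 5.42, 4.91 and 5.48 in *mec-3* PVD/OLL and 5.02 and 5.22 in *mec-3* whole animals. The 2 *mec-3* groups overlapped at the bottom, and 1 *mec-3* whole-animal value was in the lowest 25% of its array, so the low end of this gene is not known to be above background.

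The genes with no lysozyme neighbour went opposite ways. *lys-7* (WBGene00003096), the DAF-16 target, measured 11.87, 11.72 and 11.51 in wild-type and 10.23, 10.53 and 10.20 in *mec-3* PVD/OLL. In whole animals it measured 12.02 and 11.71 in wild type and 11.06 and 11.33 in *mec-3*. The wild-type groups overlapped at the top, *mec-3* whole animals came next and *mec-3* PVD/OLL was lowest, apart from all the others. Every *mec-3* value of *lys-7* thus lay below every wild-type one, as was so for *lys-3* and for 3.86% of all rows. *lys-8* (WBGene00003097) measured 9.90, 9.68 and 9.68 in wild-type and 10.12, 10.40 and 10.46 in *mec-3* PVD/OLL, and 9.83 and 9.72 in wild-type and 10.59 and 10.50 in *mec-3* whole animals. All of its *mec-3* values lay above all of its wild-type values, and the 2 wild-type groups did not differ beyond their spread.

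Within PVD/OLL, the question was which recovered messages differ when *mec-3* is lost. *lys-4* rose 3.52-fold and *lys-7* fell 2.60-fold in *mec-3* PVD/OLL, and the other 6 genes did not pass the test, which was limma with Benjamini-Hochberg adjustment over all 18451 rows and a threshold of 0.05 for the adjusted p. One member of 8 was thus called higher, where 2.58% of all rows were, and 1 lower, where 3.55% were. Arrays of the 2 genotypes did not overlap for 5 of the 8 genes, against 27.4% of all rows. The median difference of the 8 was 0.17 (log2), beside -0.07 over all rows, and their median size without sign was 0.52, beside 0.27.

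The rise of *lys-4*, from 9.0 ± 0.44 (log2, SD, n = 3) to 10.82 ± 0.33 (n = 3), was a log2 difference of 1.82 (SE 0.27, limma adjusted p = 0.00793), rank 36 from the top of the 18451 rows. It passed with each array left out in turn, at 1.57 to 1.96. The fall of *lys-7*, from 11.70 ± 0.18 to 10.32 ± 0.18, was a log2 difference of -1.38 (SE 0.19, limma adjusted p = 0.00538), and 2.37% of rows had a lower difference. It also passed with each array left out, at -1.48 to -1.30.

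*lys-3* had a difference about as large as that of *lys-7*, -1.35 (log2, 95% confidence interval -2.16 to -0.53), but with more spread in wild type it missed the threshold (limma adjusted p = 0.0658). A pass was seen without wild-type replicate 3, at -1.63 (limma adjusted p = 0.0423), while without wild-type replicate 2, the highest array, the difference was -0.94 (limma adjusted p = 0.101). With array weights it was -1.73 and passed (limma adjusted p = 0.0140), as it did in the fit of all 10 arrays (limma adjusted p = 0.0396). *lys-8* was 0.57 higher (interval 0.15 to 0.99, limma adjusted p = 0.117), with no overlap between the genotypes, and did not pass in any of the 13 other settings. For *lys-1*, *lys-5* and *lys-6* the intervals, -0.32 to 0.59, -0.25 to 0.66 and -0.32 to 1.26, included 0, as did that of *lys-2*, -0.73 to 0.12. The *lys-6* difference of 0.47 ranged from 0.26 to 0.85 with an array left out, and was highest without wild-type replicate 1.

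**Figure D2:**
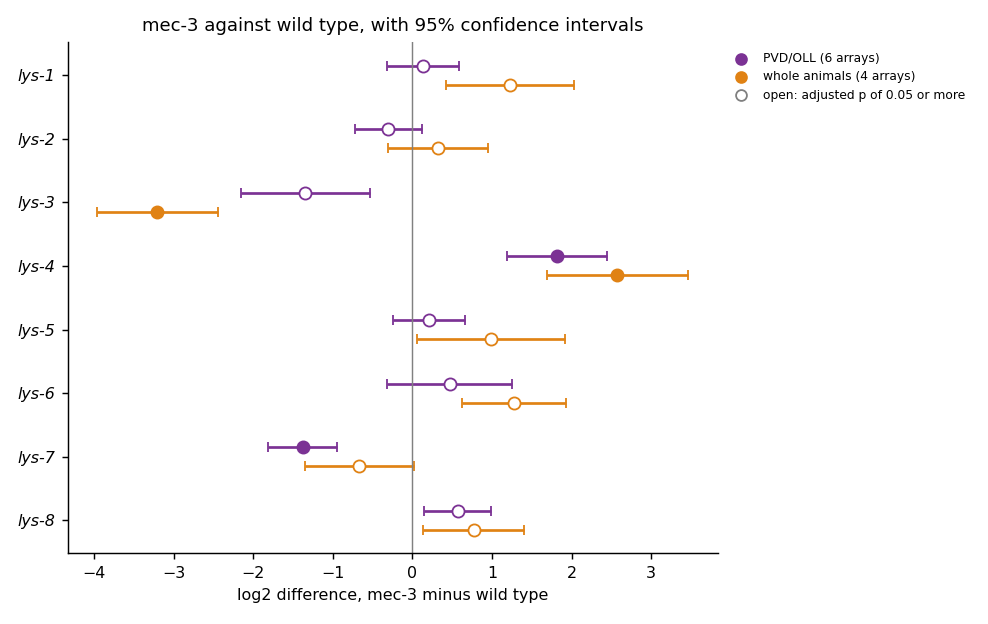
Log2 difference of each gene, *mec-3* minus wild type (horizontal axis), in PVD/OLL and in whole animals, with 95% confidence intervals from limma; filled points have an adjusted p under 0.05. *lys-4* is filled and to the right of 0 in both, *lys-7* is filled in PVD/OLL alone and *lys-3* in whole animals alone.

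The same comparison in whole animals shares no array with that in PVD/OLL. *lys-3* fell 9.22-fold and *lys-4* rose 5.97-fold in *mec-3* whole animals, and the other 6 did not pass. The fold of *lys-3* is uncertain, since 22.2% and 27.8% of rows lay below its 2 *mec-3* values on their arrays. The first was in the lowest 25% and the second just above it. As no background level was used, neither is known to be above background. One of 8 was called higher, against 2.67% of all rows, and 1 lower, against 2.88%. The 2 genotypes did not overlap for any of the 8 genes, 6 being higher and 2 lower in *mec-3*, but with 2 arrays against 2 that was so for 50.5% of all rows. The median of the 8 differences was 0.88 (log2), beside -0.03 over all rows, and their median size 1.11, beside 0.36.

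*lys-3* had a mean of 8.32 ± 0.42 (log2, SD, n = 2) in wild type and of 5.12 ± 0.14 (n = 2) in *mec-3*, which is a difference of -3.20 (SE 0.31, limma adjusted p = 0.00540), and 0.797% of rows had a lower difference. *lys-4* went from 9.57 ± 0.59 to 12.14 ± 0.27, a difference of 2.58 (SE 0.37, limma adjusted p = 0.0183), rank 47 from the top of all rows. Without *mec-3* replicate 1 the difference was -3.10 for *lys-3* and 2.77 for *lys-4*, and without replicate 2 it was -3.31 and 2.38. Neither gene was called then. Such a fit leaves 1 *mec-3* array, so a lost call is not read as a trait of these genes. The differences themselves moved little, between -3.50 and -2.91 for *lys-3* and between 2.16 and 2.99 for *lys-4* with any 1 array left out.

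*lys-6*, 1.28 higher in *mec-3* whole animals (log2, interval 0.63 to 1.93, limma adjusted p = 0.0506), lay at the edge of the threshold. It passed with array medians set equal (limma adjusted p = 0.0454) and with array weights (limma adjusted p = 0.0497). *lys-1* was 1.23 higher (interval 0.42 to 2.03, limma adjusted p = 0.0927). It was 1.59 higher and passed without wild-type replicate 1 (limma adjusted p = 0.0369), and 0.86 higher without replicate 2 (limma adjusted p = 0.195). It also passed in the fit of all 10 arrays (limma adjusted p = 0.0157) and with the dimmest 50% of rows left out (limma adjusted p = 0.0437). *lys-5* was 0.99 higher (interval 0.05 to 1.92, limma adjusted p = 0.209), a value that became 0.50 without *mec-3* replicate 2 and 1.48 without replicate 1. *lys-8* was 0.77 higher (interval 0.13 to 1.40, limma adjusted p = 0.157) and passed in the fit of all 10 arrays (limma adjusted p = 0.0443). *lys-7* had a difference of -0.67, with an interval of -1.35 to 0.02 (limma adjusted p = 0.245), and *lys-2* had an interval of -0.31 to 0.95.

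**Figure D3:**
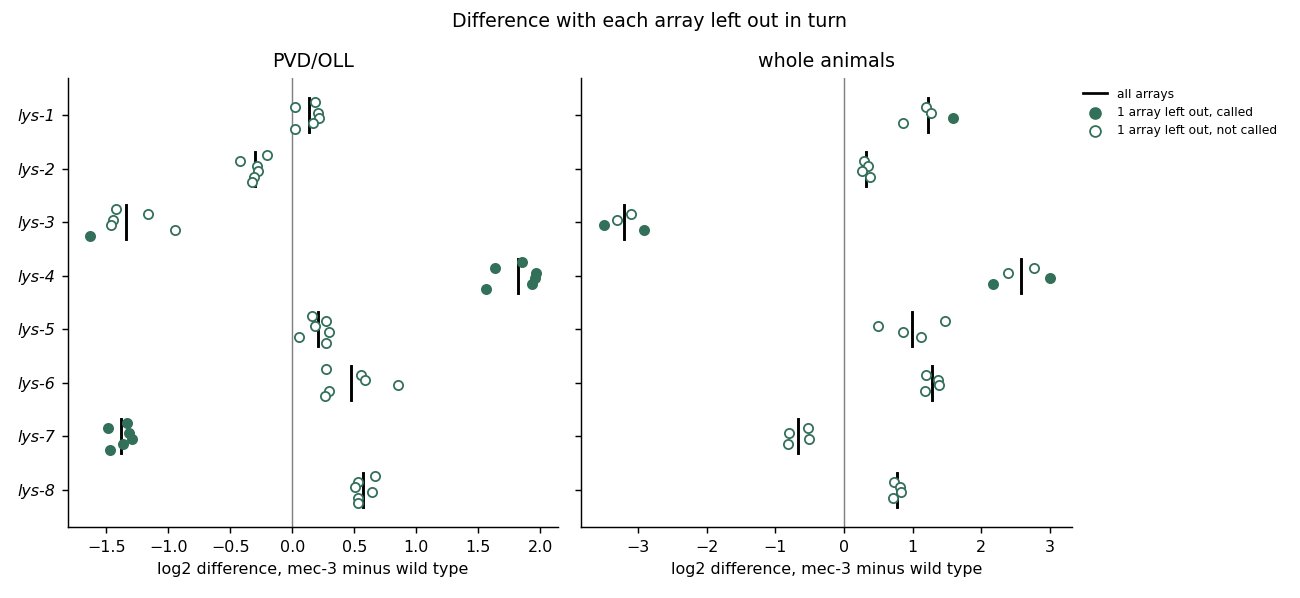
Log2 difference, *mec-3* minus wild type (horizontal axis), with all arrays (black line) and with each array left out in turn (points, filled where the adjusted p stayed under 0.05), in PVD/OLL and in whole animals. *lys-4* and *lys-7* keep filled points throughout in PVD/OLL, while in whole animals *lys-3* and *lys-4* have 2 filled and 2 open points each.

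The genotype difference had the same sign in PVD/OLL and in whole animals for 7 of the 8 genes, as it did for 68.6% of all rows. In 4 of them, *lys-3*, *lys-4*, *lys-7* and *lys-8*, the genotypes were apart in the same direction in both kinds of sample, a pattern of 18% of all rows. When the PVD/OLL difference less the whole-animal difference was tested over all 10 arrays, none of the 8 genes passed in limma at an adjusted p under 0.05, and 0.00542% of all rows did. At an unadjusted p under 0.05 there were 3, *lys-1*, *lys-3* and *lys-7*, against 9.8% of all rows. None passed in any other setting of limma tried, and no other tool was run.

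The largest of these differences of differences was that of *lys-3*, 1.86 (log2, interval 0.69 to 3.03, limma adjusted p = 0.278), from differences of -3.20 in whole animals and -1.35 in PVD/OLL. For *lys-1* it was -1.09 (interval -1.90 to -0.29, limma adjusted p = 0.358). For *lys-7* it was -0.71 (interval -1.41 to -0.02, limma adjusted p = 0.500), the difference being further below 0 in PVD/OLL. *lys-4*, called in both kinds of sample, had a value of -0.76 with an interval of -1.80 to 0.28 (limma adjusted p = 0.668). So *lys-7* and *lys-3*, each called in 1 kind of sample, were not shown to differ between the kinds.

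Setting PVD/OLL against whole animals asks what the tagged protein brought down in excess. No lysozyme gene was called higher in PVD/OLL in either genotype, against 9.61% of all rows in wild type and 7.59% in *mec-3*. *lys-2*, *lys-3* and *lys-6* were called lower in wild type, 3 of 8 against 18.9% of all rows, and all but *lys-3* and *lys-8* in *mec-3*, 6 of 8 against 19.1%. Immunoprecipitation was done on PVD/OLL samples alone, so kind of sample and preparation cannot be told apart. The median over all rows was itself below 0, at -0.21 for wild type and -0.28 for *mec-3*. It moved to 0.03 and 0.02 after quantile normalization, so differences are best read against it.

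In wild type the median of the 8 was -0.60 (log2), and 5 genes lay below the median of all rows and 3 above it under each scaling. *lys-3* was 3.26-fold lower in PVD/OLL (log2 difference -1.71, SE 0.38, limma adjusted p = 0.00899). Leaving out replicate 2 of the wild-type whole animals gave -1.41, which did not pass (limma adjusted p = 0.0785). *lys-6* was 2.29-fold lower (log2 difference -1.20, limma adjusted p = 0.0277), a fold that is uncertain because 2 of its 3 PVD/OLL values are not known to be above background. *lys-2* was 1.61-fold lower (-0.68, limma adjusted p = 0.0312). After quantile normalization neither of these passed, at -0.77 (limma adjusted p = 0.179) and -0.45 (limma adjusted p = 0.122). Without either wild-type whole-animal array, *lys-2* and *lys-6* were not called, and without replicate 2 none of the 8 was. With array weights the *lys-3* call was lost as well (limma adjusted p = 0.0612) and *lys-6* alone passed, whereas with only the wild-type arrays in the fit *lys-3* alone passed. The *lys-6* call was also lost without wild-type PVD/OLL replicate 2 or 3, and the *lys-2* call without wild-type PVD/OLL replicate 1 or 2 or *mec-3* PVD/OLL replicate 3. *lys-1*, *lys-7* and *lys-8* lay close to whole animals, at -0.10, -0.17 and -0.02, with intervals of -0.67 to 0.47, -0.66 to 0.33 and -0.47 to 0.43, and their sign turned to positive after quantile normalization.

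In *mec-3* the median of the 8 was -1.25, and 6 genes lay below the median of all rows and 2, *lys-3* and *lys-8*, above it under each scaling. *lys-6* was 4.01-fold lower in PVD/OLL than in whole animals (log2 difference -2.01, SE 0.35, limma adjusted p = 0.00372) and *lys-5* 2.68-fold lower (-1.42, SE 0.29, limma adjusted p = 0.00737), although between 25.4% and 34.6% of all rows lay below them on the *mec-3* PVD/OLL arrays. *lys-4* was 2.51-fold lower (-1.33, limma adjusted p = 0.0165), *lys-2* 2.48-fold (-1.31, limma adjusted p = 0.00252), *lys-1* 2.28-fold (-1.19, limma adjusted p = 0.00925) and *lys-7* 1.84-fold (-0.88, limma adjusted p = 0.0172). *lys-2* and *lys-6* passed in every setting tried. With an array left out, the differences of the other 4 genes called stayed below 0. They were -1.31 to -1.12 for *lys-1*, -1.52 to -1.13 for *lys-4*, -1.91 to -0.94 for *lys-5* and -1.01 to -0.74 for *lys-7*. Calls among these 4 were lost without a *mec-3* whole-animal array. Such a fit leaves 1 array in that group, so the loss is not read as a trait of these genes. The call of *lys-7* was also lost without *mec-3* PVD/OLL replicate 1 or 3, and that of *lys-4* without *mec-3* PVD/OLL replicate 3. Quantile normalization left 3 calls, those of *lys-2*, *lys-5* and *lys-6*. *lys-3* had a difference of 0.15 (interval -0.68 to 0.98) and *lys-8* of -0.22 (interval -0.67 to 0.23), the latter turning to 0.13 after quantile normalization.

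**Figure D4:**
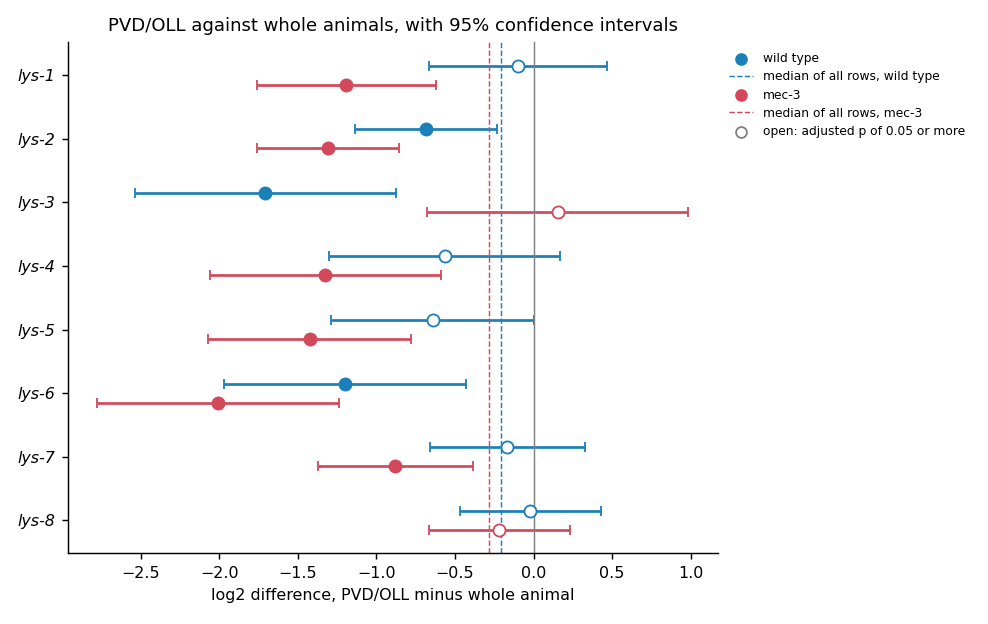
Log2 difference of each gene, PVD/OLL minus whole animal (horizontal axis), for wild type and for *mec-3*, with 95% confidence intervals from the fit of all 10 arrays, filled points for an adjusted p under 0.05 and dashed lines at the median of all rows, -0.21 and -0.28. No filled point lies to the right of 0, and 3 are filled in wild type against 6 in *mec-3*.

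The difference between the 2 enrichments of a gene is the same quantity as its difference of differences, so no gene was shown to be depleted more in one genotype than in the other. For *lys-1* the step from -0.10 in wild type to -1.19 in *mec-3* came with PVD/OLL means of 12.16 ± 0.20 and 12.30 ± 0.20 (log2, SD, n = 3) and whole-animal means of 12.26 ± 0.52 and 13.49 ± 0.05 (n = 2). The means of *lys-1* therefore differed mostly among whole animals. For *lys-7* it was PVD/OLL that held the lowest mean, 10.32 ± 0.18 in *mec-3*, against 11.20 ± 0.19 in *mec-3* whole animals.

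Likeness between genes was taken as Pearson's r of the log2 values over the 10 arrays, which share kinds of sample and genotypes, so that a high r can come from the 4 group means alone. *lys-4* and *lys-8* were the pair most alike, at 0.92, followed by the neighbours *lys-5* and *lys-6*, at 0.87, and by *lys-1* and *lys-4*, at 0.85. The neighbours *lys-1* and *lys-2* stood at 0.68, *lys-2* and *lys-3* at 0.20, and *lys-1* and *lys-3* at -0.47. *lys-3* and *lys-7*, which had lower means in *mec-3* in both kinds of sample, stood at 0.71, and each was opposed to *lys-8*, at -0.80 and -0.66.

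For each of the 8 genes, many other rows of the table were more alike than any lysozyme gene. The lysozyme gene most like *lys-8*, *lys-4*, came at rank 79 of the 18450 other rows, and that was the best rank of any member, while the one most like *lys-2*, *lys-6*, came at rank 2281. *lys-4* was closest to WBGene00044488, at 0.99, whose mean was higher in *mec-3* by 1.53 (log2) in PVD/OLL and by 2.44 in whole animals, and to WBGene00004387, also at 0.99. *lys-3* was closest to WBGene00008853, at 0.99, whose means were 7.94 and 5.20 in wild-type and *mec-3* PVD/OLL and 10.93 and 4.63 in the whole animals. *lys-7* was closest to WBGene00016474, at 0.98, with means of 12.90 and 10.43 in PVD/OLL and 13.49 and 11.96 in whole animals. The closest rows of the other 5 genes stood at 0.97 to 0.98. These identifiers are not paired with names here.

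**Figure D5:**
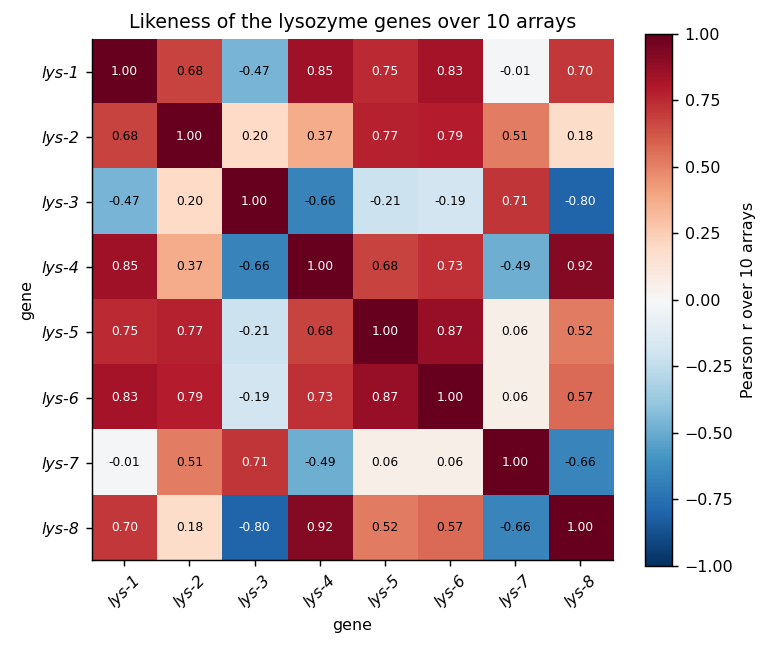
Pearson's r between each pair of lysozyme genes over the 10 arrays, with the gene on both axes and the colour scale from -1 to 1. *lys-4* and *lys-8* have the highest value, 0.92, and *lys-3* and *lys-8* the lowest, -0.80.

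Within wild-type PVD/OLL the replicates were ordered alike for most of the 8 genes. The share of all rows with such an order was not computed, so this is not read as a trait of the family. Replicate 1 was the highest of the 3 arrays for 7 of the 8 genes, the exception being *lys-3*, and replicate 3 was the lowest for 6. In *mec-3* PVD/OLL the highest array was replicate 2 for 4 genes and replicate 1 or 3 for 2 each. The part of replicate order in the PVD/OLL differences was examined only by leaving out each array in turn.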

How the data were processed

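Each array has 1 deposited log2 value for each identifier, with 0 missing values and 0 columns beyond the 10 samples. These log2 values are RMA summaries by the authors, per the submitters' processing notes. The log base was read from the range of the values, 2.26 to 15.37. The RMA version, gene models, genome build and probe assignment were not given in the sources used here. Whether probes of the neighbouring, related genes are unique to each gene was not checked, so their values are uncertain in that respect. The number of arrays limits the precision.

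The names *lys-1* to *lys-8* come with the list of identifiers. RefSeq's table (WBcel235, 46926 rows) holds all 8 symbols but 0 of the 18451 identifiers, so it was used only for gene order. For the same reason 8 planned lists of other lysozymes, effectors, regulators and markers (107 genes) were not analysed here, and no sequence was used.

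Groups come from the sample titles. limma 3.58.1 in R 4.3.3 (lmFit, eBayes, two-sided, Benjamini-Hochberg over all rows) was fitted to the 6 PVD/OLL arrays, to the 4 whole-animal arrays, and to all 10 with a mean per group, and was tested on simulated data. Alternatives were quantile normalization, equal array medians, removal of the dimmest 50% of rows, weights per array, a robust prior with an intensity trend, a replicate block, another set of arrays, and each array left out. All 8 members are named, with the 3 most correlated rows of each, of which at most 2 identifiers per direction are printed. The members, lists and tests were chosen with earlier results of these data known. Same-numbered arrays of the genotypes had deviations from their group means that correlated at -0.06 to 0.05. Differently numbered arrays correlated at -0.07 to 0.06. In whole animals, with 2 arrays in a group, the deviations mirror each other, so the check could not decide there. The numbers were not taken as pairs in the main fits, and pairing was not excluded.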

Additional observations from a re-analysis of the deposited data

Results flagged for a closer look

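*lys-2* had genotype differences of opposite sign in the 2 kinds of sample, -0.30 in PVD/OLL and 0.32 in whole animals (log2), neither of which passed (limma adjusted p = 0.406 and 0.569). Every *mec-3* PVD/OLL array lay below every wild-type one, and every *mec-3* whole-animal array above every wild-type one, a pattern of 0.64% of all rows, and of 1.04% with either orientation. In PVD/OLL the margin for *lys-2* was narrow, with 10.41 as the lowest wild-type value and 10.39 as the highest *mec-3* value. The difference of its genotype differences was -0.63 (log2, interval -1.27 to 0.02, limma adjusted p = 0.522), so the opposition was not shown by the test. With 1 array left out it ranged from -0.75 to -0.52. No group held the 4 arrays needed to look for a deviating array.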

How the results depend on the processing

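Of 577 values of single genes under other settings, 522 kept their direction and their side of the threshold, 35 lost a call, 9 gained one and 11 changed sign. Many could not change direction. Dropping an array of the other genotype left a PVD/OLL minus whole-animal difference as it was. The intensity trend, the filter, the replicate block and another set of arrays also left differences unchanged. The total includes the differences of differences, never called, so it is not a measure of robustness. The count of lysozyme genes called for *mec-3* in PVD/OLL stayed at 2 or 3 with an array left out, and in whole animals it ranged from 0 to 3 and was 4 in the fit of all 10 arrays. In wild type the count called for PVD/OLL against whole animals, 3, ranged from 0 to 3 with an array left out. It was 1 after quantile normalization, 1 with array weights, 1 with only the wild-type arrays, and 1 with the dimmest 50% of rows left out, a filter that also removed *lys-3*, *lys-5* and *lys-6*. In *mec-3* the count of 6 was 3 after quantile normalization and ranged from 2 to 6 with an array left out. The count for the difference of differences stayed at 0. Leaving out a whole-animal array leaves 1 in its group, so the counts of those fits are not read as traits of the lysozyme genes. Apart from the filter, where fewer genes were tested, the cause of the changes in count was not tested.

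The changes of sign were of small values that had not passed. After quantile normalization the wild-type PVD/OLL minus whole-animal difference was 0.15 for *lys-1*, 0.062 for *lys-7* and 0.092 for *lys-8*, the last being 0.068 with equal array medians, a setting that also ended the *lys-2* call (limma adjusted p = 0.0550). With an array left out it ranged from -0.47 to 0.27 for *lys-1* and from -0.093 to 0.035 for *lys-8*. For *lys-8*, quantile normalization also turned the *mec-3* difference to 0.13 and the difference of differences to 0.038.

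With a replicate block the counts were 2 and 2 for *mec-3* in PVD/OLL and whole animals, 2 and 6 for PVD/OLL against whole animals in wild type and *mec-3*, and 0 for the difference of differences; the call lost was that of *lys-2* in wild type (limma adjusted p = 0.0662). The numbers of all rows called varied too. For *mec-3* in PVD/OLL 1131 rows were called, and 1806 with array weights. In whole animals 1023 were called, 1592 of 9226 with the dimmest 50% left out, and 2481 in the fit of all 10 arrays. For the wild-type enrichment 5269 (28.6%) were called, 3054 of 9226 (33.1%) with the dimmest left out and 2451 (13.3%) with the wild-type arrays alone. For the *mec-3* enrichment 4921 (26.7%) were called, 3042 of 9226 (33%) with the dimmest left out, 6862 (37.2%) with the *mec-3* arrays alone and 6811 (36.9%) with array weights. With 1 array left out these 4 counts ranged from 452 to 1036, 153 to 1591, 2304 to 5643 and 1926 to 5655.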

Other observations

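Over all 10 arrays, *lys-4* spanned 3.84 (log2) and *lys-3* 3.70, more than 97.6% and 97.1% of all rows did, while the median row spanned 1.48. *lys-8* spanned 0.91, and 13.7% of rows spanned less. *lys-1*, *lys-2* and *lys-7* spanned 1.63, 1.54 and 1.82, and *lys-5* and *lys-6* 2.42 and 2.98.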
